A study of Sebastes schlegelii with 6 samples.

Results

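GADD45 proteins are small acidic proteins that carry no enzyme activity of their own and act by binding others. In mammals GADD45A, GADD45B and GADD45G bind the kinase MAP3K4, which switches on the p38 and JNK stress kinases, and they bind CDK1 with cyclin B1, PCNA and the inhibitor CDKN1A at the halts of the cell cycle. Their transcription is controlled separately: GADD45A is a classic p53 and FOXO target, GADD45B answers to NF-kB, TGF-beta and inflammatory signals and is induced early in regenerating mouse liver, and GADD45G is a cytokine-induced member. GADD45GIP1 has a related name only because its product was found as a GADD45 binder; it is not of the same protein family and sits in the large subunit of the mitochondrial ribosome.

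All genes of the Korean rockfish (Sebastes schlegelii) count table whose symbol is GADD45 with the letter a, b or g, or GADD45GIP1, were taken, every copy included. This gave 7 of 19303 genes, and 6 of the 7 had enough counts to be tested. GADD45A had 2 copies, GADD45B had 3, and Gadd45g and Gadd45gip1 had 1 each. In the order of their gene numbers they are named here GADD45A copy 1 (S.schlegelii_GLEAN_10011676, 486 coding bases), GADD45A copy 2 (S.schlegelii_GLEAN_10011787, 471 coding bases), GADD45B copy 1 (S.schlegelii_GLEAN_10000289, 510 coding bases), GADD45B copy 2 (S.schlegelii_GLEAN_10001053, 351 coding bases) and GADD45B copy 3 (S.schlegelii_GLEAN_10002717, 432 coding bases). Gadd45g is S.schlegelii_GLEAN_10021266 (480 coding bases) and Gadd45gip1 is S.schlegelii_GLEAN_10007520 (690 coding bases). The symbols were given by the authors' annotation, and chromosome positions are not used here.

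Livers were compared after 72 days of starvation (3 libraries) and after 72 days of feeding (3 libraries); no strain, age or sex is given by the labels. Whether each library is a different fish is not given by the labels, and p-values therefore measure the spread between libraries, which may be technical. Total counts lay between 11623356 and 14716282 per library. RNA came from whole liver: the summed level of 26 hepatocyte marker genes was 164194 to 204403 CPM (counts scaled to a common library size) in starved and 147237 to 296541 CPM in fed libraries. Fed replicate 1 stood apart, with correlations of log2 CPM across genes of 0.891 and 0.876 with the other fed libraries, against 0.951 between those, and with the lowest scaling factor of all libraries (0.743). Values without it are therefore given where they differ. The 6 exocrine, red cell, leukocyte, endothelial, stellate and bile duct marker lists had called genes only in the fibroblast or stellate list, where 4 of 6 tested genes fell, with a summed level of 96.1 to 116 CPM in starved and 274 to 418 CPM in fed libraries. The summed bile duct markers (435 to 730 CPM in starved and 780 to 1274 CPM in fed libraries) and endothelial markers (92.5 to 107 CPM in starved and 60.7 to 80.5 CPM in fed libraries) did not overlap between groups either, though 0 of their single genes passed by edgeR. Of all tested genes taken singly, 31.1% did not overlap between groups. Summed exocrine pancreas markers stood at 328 CPM in starved replicate 3. They were at 16.4 and 19.6 CPM in starved replicates 1 and 2, and at 8.12 to 62.7 CPM in fed libraries. Summed red cell markers were at 185, 257 and 983 CPM in starved replicates 1 to 3, and at 469 to 1333 CPM in fed libraries. Of 25 tested hepatocyte marker genes 1 fell. The share of all tested genes that fell was 2.98%, to be set beside this count and the 4 of 6 stellate genes. The part of these cell types in the GADD45 values was not tested.

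The question for each copy was how starvation moved its level. GADD45B copies 1 and 3 rose, GADD45A copy 1 fell, and GADD45A copy 2, Gadd45g and Gadd45gip1 did not pass the test. GADD45B copy 2 was near silent in both groups. Among all 13338 genes tested, 5.16% were called with the edgeR quasi-likelihood test at a Benjamini-Hochberg adjusted p under 0.05, 2.18% higher and 2.98% lower.

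GADD45B copy 3 had 13.6, 9.42 and 9.11 CPM in starved replicates 1 to 3, against 0.928, 0.19 and 0.385 CPM in fed replicates 1 to 3. Every starved library lay far above every fed one. The mean was 10.7 ± 2.51 CPM in starved and 0.501 ± 0.382 CPM in fed liver (SD, n = 3 each), and the gene rose 23.0-fold (log2 fold change 4.52 ± 0.53 SE; edgeR adjusted p = 0.00545). The fed level rests on 16 counts over 3 libraries, a pooled 0.428 CPM with a 95% exact interval of 0.245 to 0.695 CPM for counting error only, against 459 counts and 10.7 CPM (9.74 to 11.7 CPM) in starved liver. None of the fed libraries reached the count minimum by itself, so the gene entered the test through its starved libraries. By fold change it ranked 18th among the rises of all 13338 tested genes, and by p-value 50th. The rank by fold change only describes the gene, since its fed level lies near the floor. Its call was kept without any 1 of the 6 libraries, with adjusted p from 0.00157 to 0.0422.

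GADD45B copy 1 is the more abundant copy. It had 18.6, 24.4 and 30.5 CPM in starved replicates 1 to 3, against 6.84, 1.71 and 4.85 CPM in fed replicates 1 to 3. The groups did not overlap, which was also true of 31.1% of all tested genes. Its mean was 24.5 ± 5.96 CPM in starved and 4.47 ± 2.59 CPM in fed liver (SD, n = 3 each), a 5.58-fold rise (log2 fold change 2.48 ± 0.48 SE; edgeR adjusted p = 0.0255). Leaving out a single starved library, whichever it was, or fed replicate 3 ended the call (adjusted p up to 0.108), while the log2 fold change stayed between 2.08 and 2.92.

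GADD45B copy 2 was listed at 0, 0 and 2 counts in the starved libraries and at 1, 0 and 0 counts in the fed ones. At these depths the exact intervals reach 0.168 CPM in starved and 0.149 CPM in fed liver. Both groups lie at or under 3 counts, so no fold change is given.

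GADD45A copy 1 moved the other way. It had 7.01, 2.83 and 3.3 CPM in starved replicates 1 to 3, against 28.1, 13.1 and 16.1 CPM in fed replicates 1 to 3. Starved replicate 1 was the highest of its group and fed replicate 1 the highest of its own, and the groups did not overlap. The mean was 4.38 ± 2.29 CPM in starved and 19.1 ± 7.94 CPM in fed liver (SD, n = 3 each), and the gene fell by 2.12 ± 0.44 (SE) on the log2 scale, 4.33-fold (edgeR adjusted p = 0.0338). Leaving out fed replicate 1 kept the call (log2 fold change -1.74; adjusted p = 0.0335), and leaving out a single other library ended it, with adjusted p up to 0.154.

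GADD45A copy 2 had 9.63, 4.22 and 6.83 CPM in starved and 6.96, 9.0 and 6.77 CPM in fed replicates 1 to 3. The fed values lay within the starved range. Its log2 fold change was -0.14 ± 0.35 (SE; edgeR adjusted p = 0.845), and its sign turned without starved replicate 2 or fed replicate 2 (0.12 and 0.01).

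Gadd45g had 15.3, 4.88 and 6.68 CPM in starved and 6.38, 1.97 and 1.46 CPM in fed replicates 1 to 3. Only fed replicate 1 reached into the starved range. The mean was 8.95 ± 5.57 CPM in starved and 3.27 ± 2.7 CPM in fed liver (SD, n = 3 each), and the difference did not pass (log2 fold change 1.49 ± 0.64 SE; edgeR adjusted p = 0.22). Without fed replicate 1 it passed, at a log2 fold change of 2.36 (adjusted p = 0.045), and without starved replicate 1 the log2 fold change was 0.86.

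Gadd45gip1, the mitochondrial ribosome gene, had 9.14, 7.25 and 6.17 CPM in starved and 23.3, 9.0 and 9.0 CPM in fed replicates 1 to 3. Fed replicate 1 stood alone, and the other fed libraries lay within the starved range. Its log2 fold change of -0.86 ± 0.42 (SE) did not pass (edgeR adjusted p = 0.272) and was -0.26 without fed replicate 1.

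**Figure D1:**
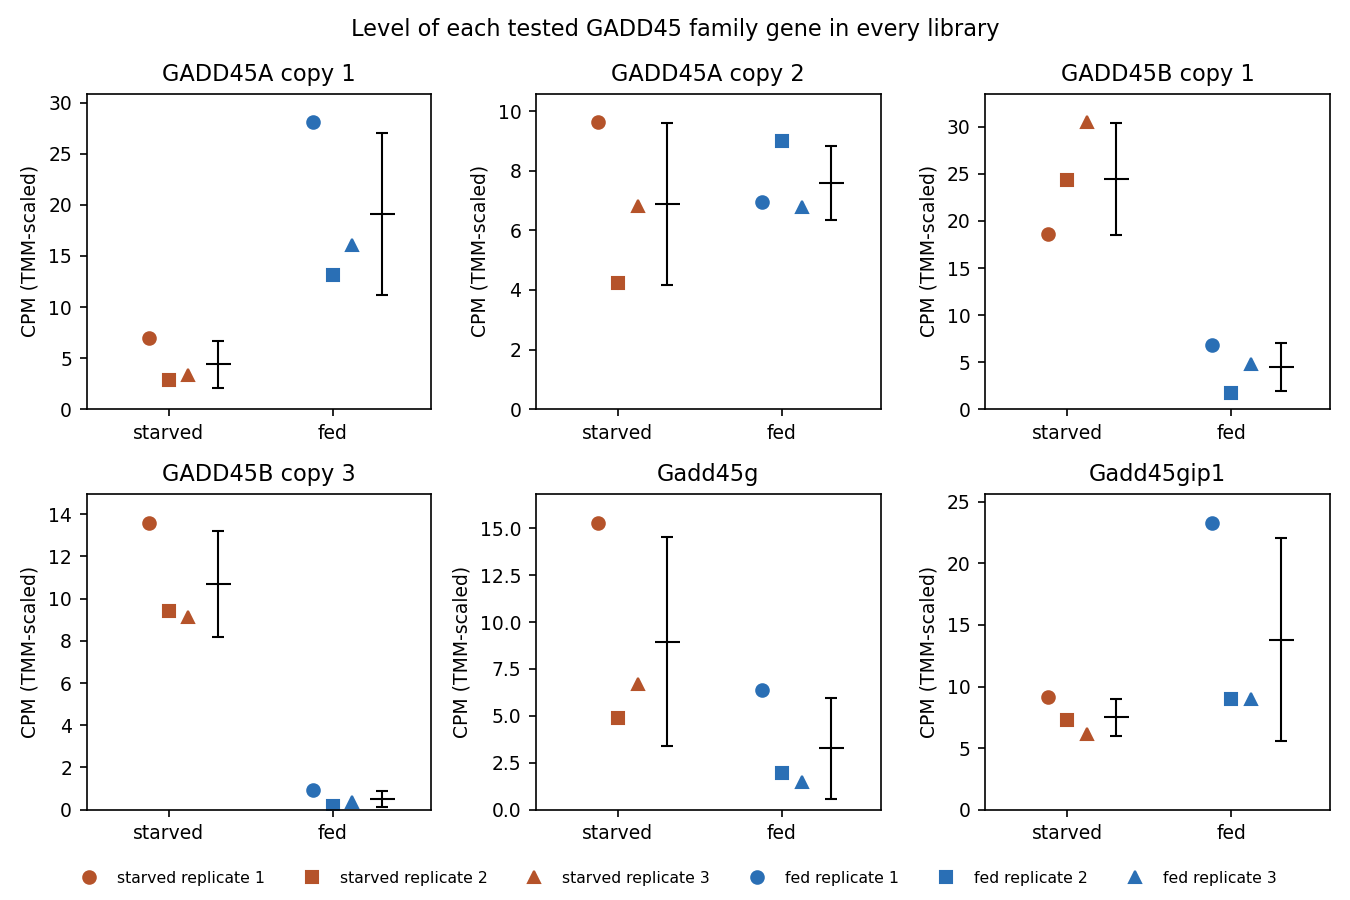
Level of the 6 tested GADD45 family genes in CPM (vertical axes, from 0) in each starved (left) and fed (right) library, 1 marker per library; the black bar gives the group mean ± SD (n = 3 each). GADD45B copies 1 and 3 lie higher in every starved library, GADD45A copy 1 lies lower in every one, and the groups overlap in the other 3 genes.

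**Figure D2:**
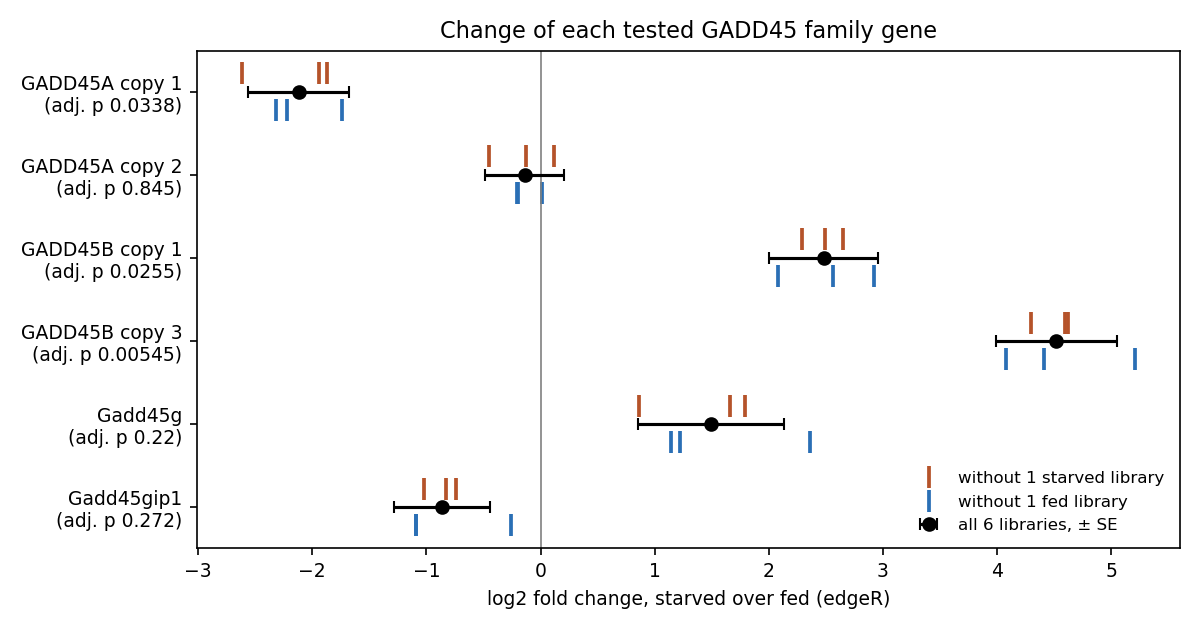
Log2 fold change, starved over fed, of the 6 tested genes (horizontal axis); points give the value with all 6 libraries ± SE, upper ticks the values without 1 starved library and lower ticks those without 1 fed library. The values of GADD45B copies 1 and 3 stay above 2 and those of GADD45A copy 1 below -1.7, while GADD45A copy 2 crosses 0.

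In the authors' deposited table GADD45B copy 3 had a fold change of 23.5 (q = 2.53e-13), GADD45B copy 1 one of 5.59 (q = 3.37e-05) and GADD45A copy 1 one of 0.231 (q = 0.000382), starved over fed. GADD45A copy 2, Gadd45g and Gadd45gip1 had q-values of 0.903, 0.154 and 0.281 in the authors' deposited table, which lists no value for GADD45B copy 2. Of the 16166 genes with a value there, 3.95% were higher and 5.54% lower at a q-value under 0.05.

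Levels of different genes can be compared only per length, for which the authors' FPKM values (counts scaled to coding length and library total) were used. In starved liver GADD45B copy 1 had the highest level, 48.5 ± 9.01 FPKM, above GADD45B copy 3 at 25.3 ± 6.93 FPKM without overlap (SD, n = 3). Gadd45g (19.1 ± 12.4 FPKM), GADD45A copy 2 (14.8 ± 6.02 FPKM), Gadd45gip1 (11.2 ± 2.81 FPKM) and GADD45A copy 1 (9.23 ± 5.1 FPKM) followed, and each of these overlapped its neighbours in that order. In fed liver GADD45A copy 1 led with 36.8 ± 5.38 FPKM, above Gadd45gip1 (18.2 ± 6.01 FPKM) without overlap; GADD45A copy 2 (16.4 ± 6.18 FPKM) overlapped Gadd45gip1. GADD45B copy 1 (8.02 ± 3.43 FPKM) and Gadd45g (6.01 ± 3.44 FPKM) overlapped each other below these, and GADD45B copy 3 lay at 1.02 ± 0.535 FPKM. The first of the family genes in the fed order was thus the sixth in the starved order. Among all 19303 genes, the mean FPKM of GADD45B copy 3 stood at percentile 88.4 in starved and 37.3 in fed liver, and that of GADD45A copy 1 at percentile 74.4 in starved and 90.7 in fed liver.

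The makeup of the family was described by the share of each gene in the summed FPKM of the 6 GADD45A, GADD45B and Gadd45g genes. The GADD45B copies together held 50.5%, 73.7% and 69.8% of it in starved replicates 1 to 3, against 15.6%, 7.05% and 17.1% in fed replicates 1 to 3. The GADD45A copies held 25.9%, 15.6% and 18.3% in starved and 71.3%, 85.4% and 77.9% in fed libraries. Neither class overlapped between groups. An exact two-sided permutation test gave p = 0.1 for each, the smallest p that 3 libraries against 3 allow. The shares of a library add up to the whole, so these classes are not independent results. A share also depends on the levels of the other genes. GADD45A copy 2 held 12.4% ± 2.86 in starved and 24.5% ± 10.5 in fed liver, with overlap (SD, n = 3 each, exact permutation p = 0.2). Its log2 fold change of -0.14 ± 0.35 (SE) did not pass either. Gadd45g held 15.4% ± 7.14 in starved and 8.56% ± 4.12 in fed liver, with overlap (SD, n = 3 each; exact permutation p = 0.3).

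The summed FPKM of the 6 genes was 141, 102 and 108 in starved and 75.4, 65.2 and 64.4 in fed replicates 1 to 3 (exact permutation p = 0.1). FPKM values use library totals without the scaling factors of the CPM values, and fed replicate 1 has the lowest factor (0.743). Summed in CPM, the 6 genes stood higher in fed replicate 1 than in starved replicate 2, so the groups overlapped. Starved replicate 1 differed from the other starved libraries in this makeup: it held the highest GADD45A and Gadd45g shares and the lowest GADD45B share of its group.

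**Figure D3:**
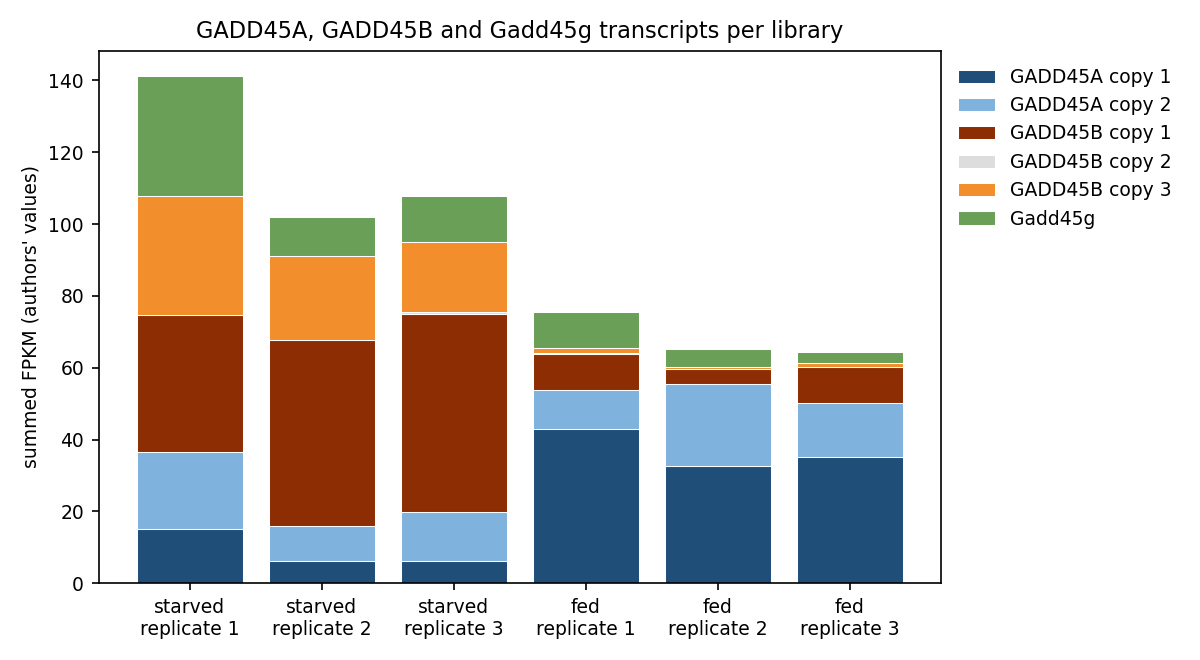
Summed FPKM of the GADD45A, GADD45B and Gadd45g genes (vertical axis, authors' values) in each starved (left 3 bars) and fed (right 3 bars) library, with 1 colour per gene. GADD45B copy 1 is the largest block in every starved library and GADD45A copy 1 in every fed one. The bars are taller in starved (102 to 141 FPKM) than in fed libraries (64.4 to 75.4 FPKM). This holds for FPKM, while the sums in CPM overlap between the groups.

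Whether copies differed in their change was examined on the log2 ratio of their CPM values (each with 1 CPM added) within every library, for all 10 pairs of the 5 tested genes. The ratio of GADD45A copy 1 to GADD45A copy 2 was -0.57 ± 0.25 in starved and 1.17 ± 0.69 in fed liver (SD, n = 3 each), a difference of -1.74 with no overlap between groups. GADD45A copy 1 relative to GADD45B copy 3 differed most, by -4.88, and relative to GADD45B copy 1 by -4.24. For the GADD45B copies the added 1 CPM, which exceeds every fed value of copy 3, decides the result. With it the ratio of copy 1 to copy 3 was 1.12 ± 0.62 in starved and 1.76 ± 0.5 in fed liver, with overlap (SD, n = 3 each; difference -0.64; exact permutation p = 0.3). Without it, a choice made after seeing the data, the ratios were 0.45, 1.38 and 1.75 in starved and 2.88, 3.17 and 3.66 in fed replicates 1 to 3, with no overlap and a difference of -2.04 (exact permutation p = 0.1), so copy 3 stood higher relative to copy 1 in every starved library. The 10 pairs share 5 genes, of which GADD45B copies 1 and 3 and GADD45A copy 1 were called singly. The pairs are therefore not independent, and their count only describes them. Of the 10 pairs 8 did not overlap between groups with 1 CPM added and 9 without it, against 32.3% and 31.8% of all pairs of tested genes. The exact two-sided permutation p of these pairs was 0.1, the smallest that this design allows (0.125 adjusted over the pairs with 1 CPM added, 0.111 without).

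Across the 6 libraries, the log2 CPM values of GADD45B copies 1 and 3 correlated at r = 0.95, and those of GADD45B copy 3 and Gadd45g at r = 0.82. GADD45A copy 1 correlated with GADD45A copy 2 at r = 0.45 and with Gadd45gip1 at r = 0.82. These values are a description, since all genes share the same libraries and the same 2 groups.

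Genes with the pattern most like each member were taken from 6849 named genes of at least 3 log2 CPM by Pearson r of log2 CPM over the 6 libraries. Where the member differs between the groups, these genes share its direction by choice, and their calls are only a description. For GADD45B copy 3 they included Noct, a circadian deadenylase-like phosphatase (r = 0.999), PNP, purine nucleoside phosphorylase (0.996), CDKN1C, an inhibitor of cyclin-dependent kinases (0.993), and GCN1, the activator of an eIF2-alpha kinase (0.993). These 4 rose in starved liver, with log2 fold changes from 1.16 to 3.72 and edgeR adjusted p from 0.00292 to 0.0319. For GADD45B copy 1 they included Ccar1, FBXO3, Apob and ppara (r = 0.986 to 0.997), of which FBXO3, an F-box protein of a ubiquitin ligase, passed (log2 fold change 1.49; adjusted p = 0.0358).

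The genes most like GADD45A copy 1 were Rangap1, ARF6, ERCC6, Yme1l1 and NLRP12 (r = 0.992 to 0.995), and 0 of these 5 passed (log2 fold changes -1.24 to -0.42; edgeR adjusted p from 0.0758 to 0.31). Those most like GADD45A copy 2 were ehhadh, Ppm1h, DMGDH, SLC15A5 and CAPZB (r = 0.943 to 0.975). For Gadd45g they were gpr89, ddx55, RIOK2, KHSRP and IUNH (r = 0.987 to 0.993), and for Gadd45gip1 Dnajc8, chmp6, Ubfd1, Taf9 and coq8b (r = 0.989 to 0.995).

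The partners that GADD45 proteins bind were counted next. Of 15 tested genes of this list, 3 fell, 0 rose and 12 did not pass. Of all tested genes, 2.98% fell and 2.18% rose. The median log2 fold change of the list was -0.40, against -0.03 over all tested genes. At an unadjusted edgeR p under 0.05, 1 was higher and 4 were lower, and DESeq2 called 0 higher and 4 lower, limma-voom 0 and 2. Gadd45g, at an unadjusted edgeR p of 0.0468, ranked 2834th by p, so at least 2834 of all 13338 tested genes lay under 0.05. Over all tested genes DESeq2 called 702 higher and 953 lower, limma-voom 262 and 332, and limma-voom with quality weights 909 and 1042. Such counts in this and the later lists are to be read beside these. The 3 that fell by edgeR were cdk1 and ccnb1, the mitosis-entry kinase and its cyclin, and aurka-b, an Aurora kinase. None of the 3 reached the count minimum in any starved library, so they entered the test through the fed libraries, where they are high. Their count therefore only describes them, and the same 3 genes are counted again among those for the entry into mitosis below. ccnb1 had 0.228 ± 0.145 CPM in starved and 7.3 ± 3.85 CPM in fed liver (SD, n = 3 each; log2 fold change -4.93; edgeR adjusted p = 0.00643), and cdk1 had 0.389 ± 0.189 CPM in starved and 11.6 ± 9.37 CPM in fed liver (log2 fold change -4.84; edgeR adjusted p = 0.0124). MAP3K4, the kinase that all 3 GADD45 classes bind, had 11.5 ± 2.93 CPM in starved and 12.9 ± 3.95 CPM in fed liver (n = 3 each; log2 fold change -0.17; edgeR adjusted p = 0.799). MAP2K7, the JNK kinase that GADD45B inhibits in mammals, had a log2 fold change of 1.03 (adjusted p = 0.209), and CDKN1A had -2.06 (adjusted p = 0.137). pcna, the replication clamp, had -0.96 (adjusted p = 0.248). The call of ccnb1 ended without starved replicate 1 and that of cdk1 without any 1 of the starved libraries, and the number of partners that fell was 0 to 3 over the libraries left out.

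Of 12 tested genes for the entry into mitosis 9 fell (75.0%) and 0 rose, against 2.98% and 2.18% of all tested genes. The median log2 fold change was -3.72. All 9 lay under the count minimum in every starved library and entered the test through the fed libraries, so their count and median only describe them. At an unadjusted edgeR p under 0.05, 0 were higher and 10 lower, and neither DESeq2 nor limma-voom called a gene higher (10 and 5 lower). Besides the 3 above they were CCNB3, CCNA2, plk1, BUB1, Foxm1 and aurkb, with log2 fold changes from -4.51 to -3.32 and edgeR adjusted p from 0.015 to 0.0315. CDC25A, the phosphatase that activates cyclin-dependent kinases, had -0.16 and WEE1, which restrains CDK1, -0.78 (adjusted p = 0.79 and 0.0985). The number that fell was 0 without starved replicate 1, 1 without starved replicate 2, 2 without starved replicate 3 or fed replicate 2; leaving out fed replicate 1 or 3 gave 10. The summed level of the 6 markers of dividing cells was 3.75 to 5.53 CPM in starved and 31.5 to 95.2 CPM in fed libraries. Of these markers cdk1, ccnb1, plk1 and aurkb are genes of this list, so the sum largely repeats its values. The part of dividing cells in the GADD45 values was not tested. In whole-liver RNA, fewer cells of a type and less RNA per cell cannot be told apart.

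Among 22 tested inhibitors of the cell cycle and growth-arrest genes, 4 rose (18.2%) and 2 fell (9.09%), with a median of 0.16. Of all tested genes, 2.18% rose and 2.98% fell. CDKN1C had 17.2 ± 1.55 CPM in starved and 1.85 ± 0.462 CPM in fed liver, a 9.37-fold rise (SD, n = 3 each; edgeR adjusted p = 0.00292). CCNG1 and Ccng2, cyclins tied to arrest, and BTG1, an antiproliferative factor, rose by 2.02, 1.33 and 2.08 on the log2 scale (edgeR adjusted p = 0.0198, 0.04 and 0.0234). CCNG1 was abundant, at 1611 ± 371 CPM in starved and 396 ± 86.9 CPM in fed liver. The 2 that fell were GAS2, a cytoskeletal protein named for growth arrest, and CDKN3, a phosphatase that is itself high in dividing cells (log2 fold changes -3.56 and -2.43; adjusted p = 0.0203 and 0.0353). CDKN3 also entered the test through the fed libraries, and a second Ccng2 gene did not pass (log2 fold change 1.24; adjusted p = 0.146). At an unadjusted edgeR p under 0.05, 7 were higher and 5 lower. The lower ones included CDKN1A, a CDKN1B gene and a BTG3 gene (log2 fold changes -2.06, -1.05 and -2.66, edgeR adjusted p = 0.137, 0.132 and 0.0662). This BTG3 gene had 0.231 CPM in starved and 1.55 CPM in fed liver on average. The other CDKN1B gene had -0.03 and the other BTG3 gene 0.15. The CDKN1C call was kept without any 1 library (adjusted p up to 0.0377). The number that rose was 1 without any 1 of the starved libraries or fed replicate 2, 3 without fed replicate 3 and 7 without fed replicate 1. The number that fell was 0 without starved replicate 1 or 2 or fed replicate 2 or 3, 1 without starved replicate 3, and 2 without fed replicate 1. DESeq2 called 6 higher and 4 lower, and limma-voom 3 and 2. Over all 13338 tested genes DESeq2 called 702 higher and 953 lower, and limma-voom 262 and 332.

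Of 26 tested genes of p53 and its targets 3 rose (11.5%) and 0 fell (median 0.24), against 2.18% and 2.98% of all tested genes. The 3 were CCNG1, Ccng2 and SESN3, a stress-inducible restrainer of TORC1. CCNG1 and Ccng2 are the same genes already counted among the growth-arrest genes above. The 0 depends on the test: at an unadjusted edgeR p under 0.05, 7 were higher and 4 lower, and 4 fell by DESeq2, 0 by limma-voom and 3 by limma-voom with quality weights. SESN3 had 12.7, 10.8 and 12.2 CPM in starved and 0.928, 2.03 and 2.85 CPM in fed replicates 1 to 3 (log2 fold change 2.59; edgeR adjusted p = 0.0131). The 4 that were lower at the unadjusted p were CDKN1A, Rrm2b, TP53INP1 and a Bax gene. Their log2 fold changes were -2.06, -1.18, -1.03 and -1.14 (edgeR adjusted p from 0.0777 to 0.137). The other Bax genes had -0.31 and -0.06. mdm2, a ubiquitin ligase and p53 target, had a log2 fold change of 0.21 (adjusted p = 0.682). Without any 1 of the starved libraries or fed replicate 2 the number that rose was 0, without fed replicate 3 it was 2, and without fed replicate 1 it was 5, with 2 lower.

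Of 32 tested genes for transcription factors that act on GADD45 genes in mammals 2 rose (6.25%) and 5 fell (15.6%), with a median of 0.33. Over all tested genes the shares were 2.18% and 2.98%. DESeq2 and limma-voom with quality weights each called 6 higher and 6 lower, limma-voom 3 and 5, and 6 were higher and 6 lower at an unadjusted edgeR p under 0.05. SMAD3, which carries TGF-beta signals, had 17.9 ± 1.87 CPM in starved and 4.46 ± 0.77 CPM in fed liver in 1 of its 2 copies (SD, n = 3 each; log2 fold change 2.0; edgeR adjusted p = 0.00667); the other copy had 0.05. FOXO4, a FOXO factor, had 15.3 ± 0.85 CPM in starved and 3.54 ± 1.88 CPM in fed liver (n = 3 each; log2 fold change 2.08; edgeR adjusted p = 0.0253). Its call was lost when a single starved library or fed replicate 2 was left out. FOXO3 (log2 fold change 0.47) and the 2 foxo1a genes (0.82 and 1.89) missed the threshold, at adjusted p = 0.413, 0.378 and 0.0726.

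CEBPA, a factor of hepatocyte identity and growth arrest, fell to 64.4 ± 11.6 CPM in starved liver, against 582 ± 85.8 CPM in fed liver (SD, n = 3 each; log2 fold change -3.18; edgeR adjusted p = 0.00417). The others that fell were Cebpb, ATF3, 1 of 2 tested myc genes and 1 of 2 PPARA genes, with log2 fold changes of -2.12, -3.03, -1.35 and -5.40. The other myc gene had 0.37 and the other PPARA gene 1.62 (adjusted p = 0.592 and 0.0656). The NF-kB genes NFKB1, Nfkb2 and Rela had log2 fold changes of 0.19, 0.07 and 0.06 (adjusted p from 0.716 to 0.952). Without any 1 of the starved libraries the counts were 1 higher and 2 lower, without fed replicate 1 they were 5 and 5, without fed replicate 2 they were 1 and 4, and without fed replicate 3 they were 4 and 4. Without fed replicate 1 the median was -0.01.

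Of 32 tested genes of the p38 and JNK cascade, through which GADD45 proteins signal, 0 rose and 3 fell (9.38%), with a median of 0.01. Over all tested genes 2.18% rose and 2.98% fell. DESeq2 and limma-voom called 0 higher and 3 lower as well, and 2 were higher and 3 lower at an unadjusted edgeR p under 0.05. At least 2834 of all 13338 tested genes lay under that unadjusted p. The 3 that fell by edgeR were ATF3 and 2 of 3 JUN genes, stress-induced transcription factors at the end of the cascade. ATF3 is the gene already counted among the transcription factors above. These JUN genes fell by 1.92 and 1.6 on the log2 scale (edgeR adjusted p = 0.0292 and 0.0368), while the other JUN gene had 55.0 CPM in starved and 43.2 CPM in fed liver on average (log2 fold change 0.35; adjusted p = 0.746), and FOS and fos, partners of JUN, had 0.66 and 0.83 (adjusted p = 0.489 and 0.506). None of the tested kinases passed: the 2 mapk14a genes for p38 had -0.02 and -0.25, and mapk8 and Mapk9 for JNK had -0.14 and 0.47. Without single libraries the number that fell was 0 (starved replicate 1 or 3), 1 (starved replicate 2, fed replicate 2 or 3) and 4 (fed replicate 1).

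GADD45A has been linked to active DNA demethylation in vertebrates. Among 21 tested genes of demethylation, base excision and DNA methylation 0 passed by edgeR (median -0.00), against 5.16% of all tested genes. At an unadjusted edgeR p under 0.05, 3 were higher and 1 lower, where at least 2834 of all 13338 tested genes lay under that p. DESeq2 and limma-voom with quality weights called 1 higher each and limma-voom 0, and without fed replicate 1 edgeR called 1 higher and 1 lower. TET1, TET2 and tet3, which oxidise methylcytosine, had log2 fold changes of 0.87, 0.88 and 0.94 (adjusted p = 0.149, 0.205 and 0.113), and TDG and Tdg, which excise its oxidised forms, had -0.00 and -0.67.

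The mitochondrial large ribosomal subunit, where the Gadd45gip1 product sits, had 47 tested genes. Of these 0 passed by edgeR, against 5.16% of all tested genes, with 0 higher and 4 lower at an unadjusted p under 0.05. Of all 13338 tested genes at least 2834 lay under that unadjusted p. DESeq2 and limma-voom called 0 as well, and limma-voom with quality weights called 1 higher. Their median log2 fold change was -0.54, and 42 of 47 lay below 0, against an overall median of -0.03. Without fed replicate 1 the median was -0.03 and 1 gene rose, so this library moved with the list as it did with Gadd45gip1.

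Across the 8 lists, each gene counted once, 7 of 189 tested genes rose (3.70%) and 18 fell (9.52%), against 2.18% and 2.98% of all tested genes. Of the 18, 10 reached the count minimum in none of the starved libraries and entered the test through the fed ones. The lists were also chosen with earlier results of these data known, so these shares only describe the genes. Of these 25 genes, CDKN1C, CEBPA, SMAD3 and PPARA kept an adjusted p under 0.05 without any 1 of the libraries.

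**Figure D4:**
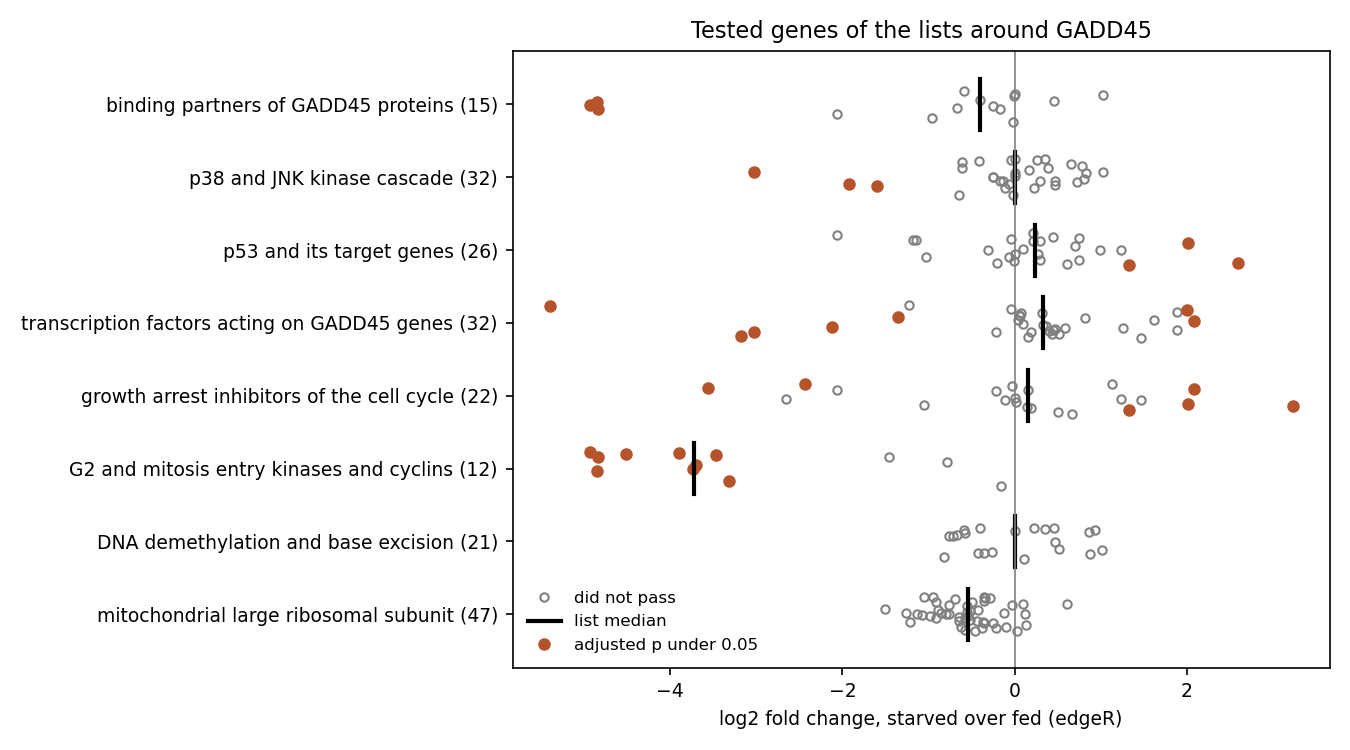
Log2 fold change, starved over fed (horizontal axis), of every tested gene in the 8 lists (rows, with the number of tested genes); filled points passed at an adjusted p under 0.05, open points did not, and the black bar marks the list median. Most genes for mitosis entry lie far to the left, where the called ones entered the test through the fed libraries, and the other list medians lie between -0.54 and 0.33.

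The deposited annotation puts each of the 6 GADD45A, GADD45B and Gadd45g genes in 5 KEGG pathways. Of all tested genes, 2.18% rose and 2.98% fell. With the GADD45 genes left out, 4 of 64 tested genes of the p53 signaling pathway rose (6.25%) and 9 fell (14.1%). Those that rose were SESN3, CCNG1, Ccng2 and IGFBP3, and those that fell were cyclins, cdk1, both cyc genes for cytochrome c, both rrm2 genes for ribonucleotide reductase and 1 gene without a symbol. Several of these, among them SESN3, CCNG1, Ccng2, cdk1 and ccnb1, are counted in the lists above as well. In the FoxO signaling pathway 7 of 140 rose (5.0%), among them both Irs2 genes, 1 of 2 INSR genes, FOXO4 and SMAD3. There 7 fell (5.0%), among them ccnd1, Sirt1 and 1 of 3 PIK3R1 genes. In the cell cycle 2 of 111 rose (1.8%) and 14 fell (12.6%). In MAPK signaling 4 of 218 rose (1.83%) and 8 fell (3.67%), and in apoptosis 1 of 139 rose (0.719%) and 8 fell (5.76%). The falls of cdk1, ccnb1, CCNB3, CCNA2, plk1 and BUB1 entered the test through the fed libraries. Cdc20, ttk, MAD2L1, Pttg1, Bub1b and both rrm2 genes had 0.0236 to 0.372 CPM on average in starved liver. There mos of MAPK signaling had 0.162 CPM, birc5.2 of apoptosis 0.144 CPM and the p53 signaling gene without a symbol 0.236 CPM. IGFBP3 had 0.0 CPM and CACNA2D3 of MAPK signaling 0.179 CPM on average in fed liver. Counts that hold these genes only describe them. The counts of all 5 pathways move with single libraries. The rises in p53 signaling were 0 without any 1 of the starved libraries or fed replicate 2, 2 without fed replicate 3 and 7 without fed replicate 1. Without fed replicate 1 the genes that fell numbered 12 in p53 signaling, 14 in FoxO signaling, 17 in the cell cycle, 16 in MAPK signaling and 17 in apoptosis. Without starved replicate 1 they numbered 2, 0, 1, 1 and 1 in the same order, and without any 1 of the other libraries they lay within this range. Over the libraries left out the rises numbered 2 to 13 in FoxO signaling, 2 to 5 in the cell cycle, 1 to 7 in MAPK signaling and 0 to 6 in apoptosis.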

How the data were processed

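RNA from whole liver was poly(A)-selected, made into strand-marked libraries and sequenced as read pairs, per the labels' protocols. The submitters' processing notes name Trimmomatic, HISAT2, Cufflinks and HTSeq, without versions or roles; the genome build and the use of strand in counting are not given in the sources used here, so near-identical copies, overlapping and antisense genes may share reads. The authors deposited unnormalized whole-number counts. Their deposited FPKM values scale these counts by library total and gene length; the lengths recovered from them are all multiples of 3 and are called coding lengths. The authors also deposited, for each gene, a ratio of the groups (fold change) and a q-value from a test that is not named. Its direction, starved over fed, was checked on the FPKM means (same sign for 96.8% of genes).

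Groups came from the sample titles. Their codes share 1 letter between groups, that of replicate 3 in each, without saying what it marks (correlation of log2 CPM between these libraries 0.906, against 0.819 to 0.903 for the other starved and fed pairs). Replicates differed by more than counting noise (chi-square per degree of freedom 33.6 to 149.1 within groups). The main test used edgeR 4.0.16 under R 4.3.3 on the deposited counts (filterByExpr defaults, TMM scaling, robust quasi-likelihood F test, Benjamini-Hochberg adjustment over 13338 genes); CPM values use the TMM factors, and SE is the log2 fold change divided by the square root of F. Alternatives used DESeq2 1.42.0, limma 3.58.1, other filters and scalings, log2(FPKM + 1), log2(FPKM + 0.1), and each library left out. The code was tested on simulated data. Exact intervals cover counting error only, since reads are not independent molecules.

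The members and gene lists were chosen with earlier results of these data known. All members are named; list genes named are the called ones and others picked by role; gene likeness follows a rule of 5 genes per member. Some genes that these rules name are not reported here. The KEGG terms and the authors' calls were added after seeing the data. Symbols with a paralog ending a or b were accepted in lists, except junb, fosb and bub1b, the last removed after its value was seen. Sequences of the members are not used here.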

Additional observations from a re-analysis of the deposited data

How the results depend on the processing

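The directions of GADD45B copies 1 and 3, GADD45A copy 1, Gadd45g and Gadd45gip1 were kept under all 18 alternatives run, and the call of GADD45B copy 3 was kept under all 18 (log2 fold change 3.70 to 5.21). With single libraries left out, the log2 fold change ranged from 2.08 to 2.92 for GADD45B copy 1, from -2.62 to -1.74 for GADD45A copy 1 and from 0.86 to 2.36 for Gadd45g, and the calls changed as given above. At an adjusted p under 0.01, GADD45B copy 1 (2.48) and GADD45A copy 1 (-2.12) were not called. GADD45A copy 2 reversed without starved replicate 2 (0.12) and without fed replicate 2 (0.01). Its alternatives lay between -0.45 and 0.12.

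Over all genes 688 were called, 291 higher and 397 lower. The DESeq2 Wald test called 1655 (702 higher, 953 lower), limma-voom with quality weights 1951 (909 and 1042), and an adjusted p under 0.01 left 110 (45 and 65). With log2(FPKM + 0.1) 189 were higher. The authors' deposited table has 1534 genes at q under 0.05 and 1359 with a 2-fold change as well. With single libraries left out the count ranged from 102 to 1704, with 50 to 804 higher and 49 to 900 lower. The cause was not tested. Of the 8 lists together 25 genes were called, 40 with the DESeq2 Wald test, 42 with quality weights, 5 at an adjusted p under 0.01, and 4 to 40 with single libraries left out. Differences between copies kept their sign in all 9 alternatives of each pair, and that between GADD45B copies 1 and 3 was -0.64, but -2.04 without a pseudocount, -1.18 with log2(FPKM + 1) and -1.91 with log2(FPKM + 0.1). No paired analysis was possible because the title codes of the groups share only 1 letter and no number, which gives 1 candidate pair of libraries. With 3 libraries a group, no exact test over libraries can pass 0.05, and the 16 fed counts of GADD45B copy 3 limit its fold.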
